A study of Mus musculus with 4 samples.

Results

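The transcripts of the 9 Toll-like receptors Tlr1 to Tlr9 and of their shared adaptor Myd88 were measured in mouse ear extracts by 11 array probes. The members were found by matching the transcript accession that each non-control probe targets to these 10 gene symbols, which took 11 of 39429 probes and 10 of 20971 named genes. Each gene had 1 probe except Tlr7, which had 2.

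Toll-like receptors are membrane proteins that recognize conserved molecules of microbes and some released by damaged cells. On ligand binding they recruit adaptor proteins through a shared cytoplasmic TIR domain. Every Toll-like receptor except Tlr3 can signal through Myd88, which assembles Irak kinases and the ubiquitin ligase Traf6 and so leads to NF-kB and to cytokine transcription, while Tlr3 uses the adaptor Ticam1. Tlr1, Tlr2, Tlr4, Tlr5 and Tlr6 act at the cell surface on lipoproteins, lipopolysaccharide and flagellin, and Tlr3, Tlr7, Tlr8 and Tlr9 act in endosomes on nucleic acids. The genes are known to be used most by macrophages, dendritic cells and other leukocytes and also by epithelium, the lining of the middle ear included.

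The sequence upstream of the members was read from RefSeq promoters of assembly GRCm38.p6, which held 8 of the 10 genes and not Tlr4 or Tlr7. Matches were searched on both strands in the 250 bases before each start of a RefSeq transcript, where Tlr1 and Tlr6 each had more than 1 start. The interferon-sensitive element (GAAA and GAAA with 2 bases of any kind between them), present in 2.98% of 32851 promoters of this length, was found at Myd88 and Tlr6. The NF-kB element (GGGA and TTCC with 2 bases of any kind between them), present in 1.21% of them, was found at Tlr3 alone among the 8 genes, and the AP-1 element TGANTCA, present in 6.75%, at Tlr9 alone. TATAAA (12.4% of promoters) was matched at Myd88, Tlr6 and Tlr8, GGGCGG (32.7%) at Myd88, Tlr2 and Tlr5, CCAAT (33.8%) at Tlr1, Tlr5 and Tlr8, and the PU.1 core GAGGAA (23.3%) at Tlr1, Tlr8 and Tlr9. Of these motifs, matches overlapped at Myd88, where TATAAA shared bases with its own reverse complement, at Tlr8 in the same way, at Tlr1 for CCAAT and at Tlr6 for the interferon-sensitive element.

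The stretches that hold the 3 rarest motifs are shown 5′ to 3′ on the strand of the gene, with every match to a searched motif in capitals. They cover chr9:119340019-119340268 on the minus strand for Myd88, chr5:64959167-64959416 on the minus strand for Tlr6, chr9:106222348-106222597 on the plus strand for Tlr9 and chr8:45410381-45410630 on the minus strand for Tlr3.
Myd88: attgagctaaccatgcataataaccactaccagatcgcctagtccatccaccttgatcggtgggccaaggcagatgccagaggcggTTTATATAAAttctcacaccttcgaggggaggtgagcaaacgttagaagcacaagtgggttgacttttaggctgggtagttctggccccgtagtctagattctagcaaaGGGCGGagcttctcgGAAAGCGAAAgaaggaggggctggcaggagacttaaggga
Tlr6: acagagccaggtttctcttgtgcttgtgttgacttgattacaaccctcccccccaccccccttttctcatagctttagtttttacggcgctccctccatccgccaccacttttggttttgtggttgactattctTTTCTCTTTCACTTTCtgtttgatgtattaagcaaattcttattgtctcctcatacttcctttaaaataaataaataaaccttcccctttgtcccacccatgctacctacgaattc
Tlr9: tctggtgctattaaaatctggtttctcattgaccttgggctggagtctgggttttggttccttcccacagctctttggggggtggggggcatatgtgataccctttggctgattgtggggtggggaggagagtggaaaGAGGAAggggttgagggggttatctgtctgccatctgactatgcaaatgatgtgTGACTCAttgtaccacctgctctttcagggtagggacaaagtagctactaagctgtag
Tlr3: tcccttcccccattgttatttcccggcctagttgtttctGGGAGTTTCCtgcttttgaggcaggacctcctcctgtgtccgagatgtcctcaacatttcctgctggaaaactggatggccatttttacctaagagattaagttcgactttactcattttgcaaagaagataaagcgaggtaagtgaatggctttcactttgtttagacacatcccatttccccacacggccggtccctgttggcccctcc
The match GAAAGCGAAA lay 40 bases before the Myd88 start, with GGGCGG at 55 bases and TATAAA at 160 bases. The match TGACTCA lay 58 bases before the Tlr9 start and GGGAGTTTCC 211 bases before the Tlr3 start. These matches describe the letters alone, and binding was not measured.

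The arrays compared ears of mice that had inhaled diesel exhaust particles (DEPs) with control ears that the labels list with the treatment none. The methods of the study describe male BALB/c mice 6 to 10 weeks of age, inhalation for 1 h on each of 5 days and death on day 14, after which the temporal bone area with the middle ear was taken. The ears were dissected before RNA extraction. Each of the 4 arrays carried 1 DEP extract in the red dye Cy5 and 1 control extract in the green dye Cy3. The labels call the arrays biological replicates, and the number of mice behind an extract is not given in the sources used here.

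All ratios below are log2 ratios of Cy5 over Cy3 signal, so that a value above 0 means a brighter DEP channel. This direction opposes the study's own lists, since most genes that it names as up-regulated lay lower in the channel labelled DEP and most that it names as down-regulated lay higher. In the deposited ratios 24 of 25 tested genes of the first kind had a mean below 0 (all but Fgf8) and 9 of 11 of the second kind had one above 0 (all but Cd4 and Lrp1). By quantitative PCR of middle ear tissue the study likewise reported higher CHRM1 and EPO and lower SOS1, ESR1, IFNA1 and CD4 after exposure. The means in the deposited ratios were -1.21 for Chrm1, -1.36 for Epo, 1.06 for Sos1, 0.46 for Esr1 and 0.74 for Ifna1. Cd4, at -0.1, alone had the direction of the quantitative PCR. The source names of the samples put DEP in Cy5, but the treatments of both groups are listed under the Cy5 channel, and the source names were followed. With the opposite assignment every sign below would turn. The dyes were not swapped, so an effect of DEPs and a preference of a probe for 1 dye cannot be told apart.

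Between 65.4% and 68.9% of probes were well above background in Cy5 and between 59.2% and 68.0% in Cy3. The 4 arrays lay on 1 slide and were scanned once. Across all probes the ratios of arrays 1 and 2 correlated with Pearson's r = 0.61 and those of arrays 1 and 4 with r = -0.22, which is a description over probes that share an array. With 4 arrays an exact sign-flip test has 8 patterns and a smallest two-sided p of 0.125, so the test used was limma's moderated test across all probes with Benjamini-Hochberg adjustment. No probe of 31577 passed an adjusted p under 0.05 (0.0% called, smallest adjusted p 0.0922), while 5858 (18.6%) had an unadjusted p under 0.05.

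None of the 10 genes passed adjustment in limma, and the mean ratio of 9 of them lay above 0, against 55.3% of all 17962 genes tested. Their median was 0.24, with medians of 0.04, 0.12, 0.21 and 0.28 on arrays 1 to 4, against 0.04 for all genes, and was 0.13 without array 4. This order turned after normexp and median centring, where the members' median was 0.1 and that of all genes 0.188. The unadjusted p was under 0.05 for Tlr5, Tlr8 and Myd88, 3 of 10 genes with a mean above 0, where 9.19% of all genes were called in that direction at this level and 7.5% in the other. Tlr5 and Tlr8 were not measured in both channels on most or all arrays, and among the 7 members that were measured throughout the count was 1, against 6.65% of 14281 genes measured in the same way. The mean of no member passed 2-fold, which 6.21% of all genes did. Arrays 3 and 4 were also used alone, a choice made after seeing the data. All 9 genes with a value then lay above 0, against 54.0% of all genes. Of the 9, 1 had an unadjusted p under 0.05, against 8.39% of all genes called higher. It was Tlr3, at a mean of 1.24, whose Cy3 signal was not well above background on either array. The Cy3 signal of Tlr5 was not well above background on these arrays either.

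The members fell into those bright enough to be measured and those not. Tlr1, Tlr2, Tlr4, Tlr6, Tlr7, Tlr9 and Myd88 exceeded the scanner software's background limit in both dyes on each of the 4 arrays, as did 79.5% of all genes, and are called fully measured. Their median ratio was 0.14, and 6 of the 7 lay above 0 (55.7% of all such genes). Of the 7, 3 (Tlr7, Tlr9 and Myd88) were higher on 4 of 4 arrays, against 15.4% of fully measured genes. Tlr7 was counted by its brighter probe, and its second probe, also fully measured, was lower on arrays 1 and 2. The dim genes Tlr3, Tlr5 and Tlr8 are left out of this summary and given by array below. The median and counts over all members include them. No member spot was saturated.

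**Figure D1:**
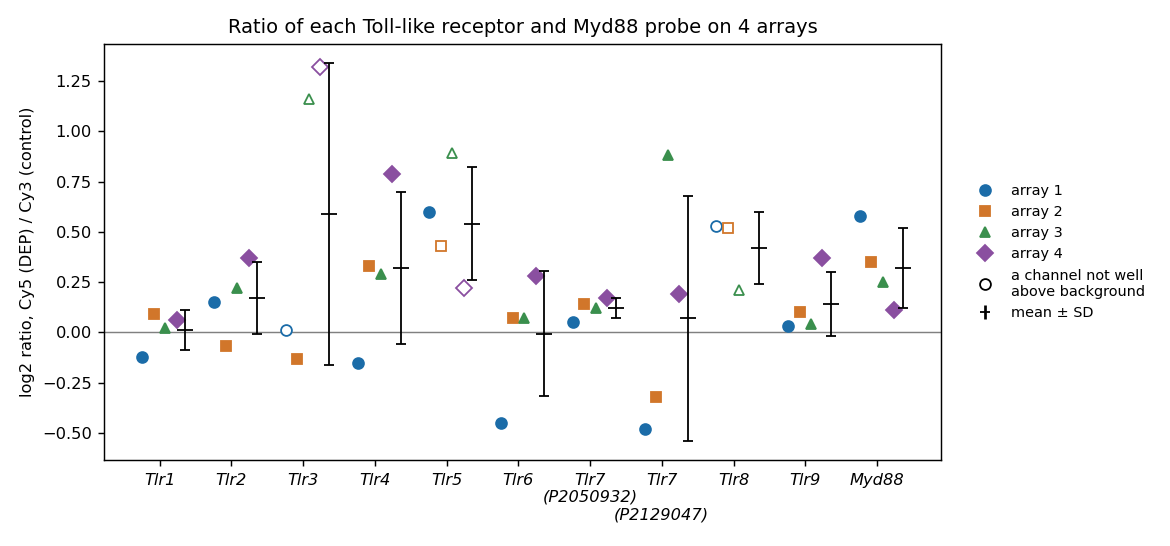
Log2 ratio of Cy5 (DEP) over Cy3 (control) for each of the 11 probes, with 1 symbol per array, open symbols where a channel was not well above background, and the mean with its SD over arrays as a bar. The 4 Myd88 values lie between 0.11 and 0.58, all above 0, and the widest spread belongs to the dim Tlr3 probe, from -0.13 to 1.32.

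Of the receptors of the cell surface, Tlr2, which recognizes bacterial lipoproteins together with Tlr1 or Tlr6, had processed signals of 629, 491, 404 and 467 in Cy5 and 566, 514, 348 and 362 in Cy3 on arrays 1 to 4. Its ratios were 0.15, -0.07, 0.22 and 0.37, above 0 on 3 of 4 arrays. The mean was 0.17 ± 0.18 (SD, n = 4), a fold of 1.12 with a 95% interval of 0.907 to 1.39 and an adjusted p of 0.484 in limma. It was 0.1 without array 4 and 0.08 after normexp and loess.

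Its partners differed less from 0. Tlr1 had signals of 191, 173, 154 and 166 in Cy5 and 209, 163, 151 and 159 in Cy3. The ratios of Tlr1 were -0.12, 0.09, 0.02 and 0.06, with a mean of 0.01 ± 0.1 (SD, n = 4), a fold of 1.01 (0.838 to 1.21) and a limma adjusted p of 0.957. Of fully measured probes, 92.6% had a larger SD than Tlr1.

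Tlr6, which lies next to Tlr1 in the genome and is a close paralog of it, had signals of 184, 178, 139 and 169 in Cy5 and 251, 169, 132 and 139 in Cy3. The ratios of Tlr6 were -0.45, 0.07, 0.07 and 0.28, so that array 1 alone lay below 0. The mean was -0.007 ± 0.31 (SD, n = 4), a fold of 0.995 (0.755 to 1.31) with a limma adjusted p of 0.983. Without array 1 the mean was 0.14. Whether the probes of these paralogs also bind each other's transcripts was not tested.

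Tlr4, the receptor of lipopolysaccharide, had signals of 389, 410, 334 and 461 in Cy5 and 431, 326, 272 and 267 in Cy3. Array 1 lay below 0 here too, with ratios of -0.15, 0.33, 0.29 and 0.79 over the 4 arrays. The mean of 0.32 ± 0.38 (SD, n = 4) was as large as that of Myd88 but its spread was wider, and the fold was 1.24 (0.907 to 1.71) with a limma adjusted p of 0.388. Leaving out array 4 lowered the mean to 0.16 and leaving out array 1 raised it to 0.47.

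Tlr5, the receptor of flagellin, was dim. Its signals were 54.5, 20.7, 18.1 and 28.0 in Cy5, where arrays 1, 3 and 4 were well above background, and 35.8, 15.4, 9.77 and 24 in Cy3, where array 1 alone was. The ratios of 0.6, 0.43, 0.89 and 0.22 were above 0 on all 4 arrays, with a mean of 0.54 ± 0.28 (SD, n = 4) and a limma adjusted p of 0.186. That mean became 0.11 after normexp and loess and -0.04 after normexp and median centring. Array 1, the array with both channels measured, gave 0.6.

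**Figure D2:**
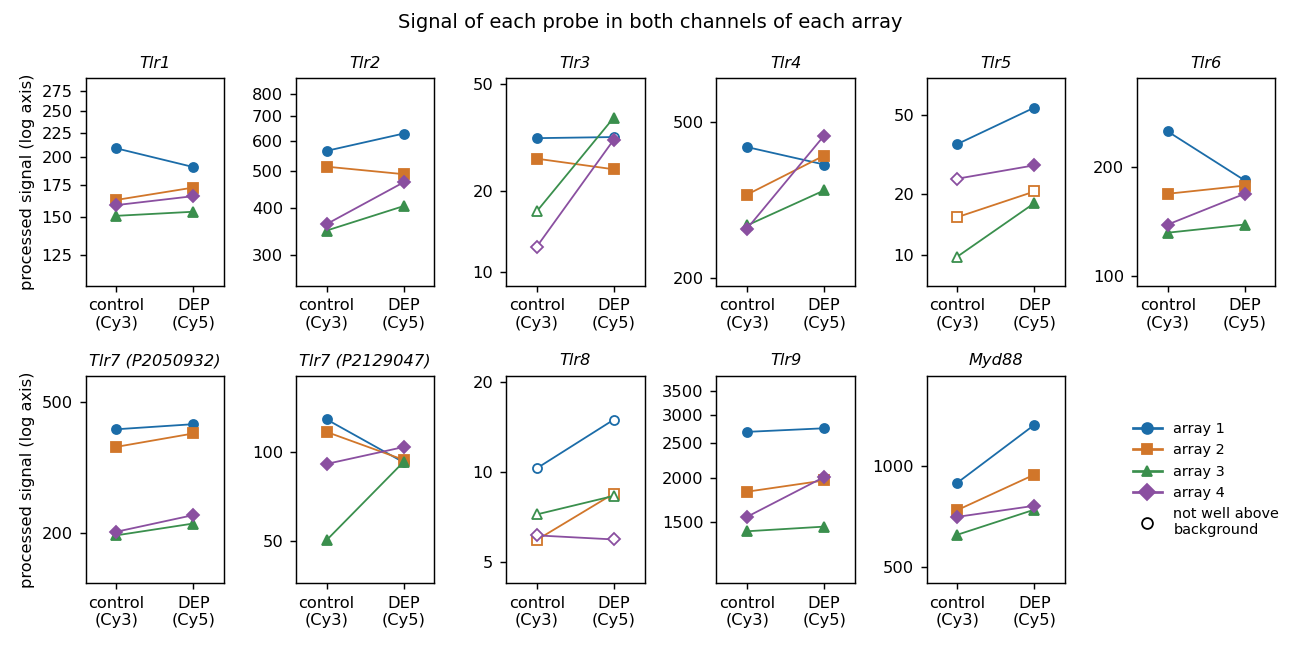
Processed signal of each probe in the control (Cy3) and DEP (Cy5) channel, on a logarithmic axis of its own for each probe, with 1 line per array and open symbols where the signal was not well above background. Lines of Myd88, Tlr9 and the Tlr7 probe A_55_P2050932 rise on all 4 arrays, and the Tlr8 signals, all open, lie between 5.92 and 15.0.

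Of the endosomal receptors, Tlr9, which recognizes unmethylated CpG DNA, had signals of 2752, 1965, 1459 and 2009 in Cy5 and 2689, 1828, 1416 and 1555 in Cy3. Its ratios were 0.03, 0.1, 0.04 and 0.37, above 0 on 4 of 4 arrays, with array 4 apart from the other 3. The mean was 0.14 ± 0.16 (SD, n = 4), a fold of 1.1 (0.896 to 1.35) with a limma adjusted p of 0.547, and it was 0.06 without array 4.

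Tlr7, a receptor of single-stranded RNA, had 2 probes that differed in spread. The brighter, A_55_P2050932, had signals of 429, 402, 214 and 227 in Cy5 and 414, 366, 197 and 202 in Cy3, with ratios of 0.05, 0.14, 0.12 and 0.17. The mean of that probe was 0.12 ± 0.05 (SD, n = 4), a fold of 1.09 (0.911 to 1.3) with a limma adjusted p of 0.541, and 98.7% of fully measured probes had a larger SD.

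The second Tlr7 probe, A_55_P2129047, had signals of 92.4, 94.2, 92.6 and 104 in Cy5 and 129, 117, 50.4 and 91.2 in Cy3. The ratios of this probe were -0.48, -0.32, 0.88 and 0.19, below 0 on arrays 1 and 2 and above 0 on arrays 3 and 4. The mean was 0.07 ± 0.61 (SD, n = 4) with a limma adjusted p of 0.901, and 15.9% of fully measured probes had a larger SD. The 2 probes thus had opposite signs on arrays 1 and 2.

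Tlr3, a receptor of double-stranded RNA, had signals of 31.8, 24.1, 37.6 and 31.1 in Cy5 and 31.5, 26.4, 16.8 and 12.4 in Cy3. The ratios were 0.01 and -0.13 on arrays 1 and 2 and 1.16 and 1.32 on arrays 3 and 4, where the Cy3 signal was not well above background. The mean of 0.59 ± 0.75 (SD, n = 4) had a limma adjusted p of 0.36 and ranged from 0.35 without array 4 to 0.83 without array 2. It was 0.16 after normexp and loess and 0.03 after normexp and median centring. On array 2, the array with both channels well above background, the ratio was -0.13.

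Tlr8, which lies next to Tlr7 in the genome and whose human counterpart recognizes single-stranded RNA, was well above background in neither channel on any array. Its signals were 15.0, 8.47, 8.32 and 5.94 in Cy5 and 10.3, 5.92, 7.21 and 6.13 in Cy3. Arrays 1 to 3 gave ratios of 0.53, 0.52 and 0.21 and array 4 gave none. No fold is given, as neither channel was well above background, and the limma adjusted p was 0.262 over the 3 arrays.

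Myd88 had signals of 1333, 945, 742 and 762 in Cy5 and 894, 740, 624 and 706 in Cy3. The ratios were 0.58, 0.35, 0.25 and 0.11, so that the DEP channel was the brighter on 4 of 4 arrays. The mean was 0.32 ± 0.2 (SD, n = 4), a fold of 1.25 with a 95% interval of 1.0 to 1.56. Limma's unadjusted p was 0.0481 and its adjusted p 0.266. Of fully measured probes, 26.3% had a mean farther from 0 than Myd88. Array 1 held the largest value, and without it the mean was 0.24.

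Myd88 and Tlr2 were printed in 10 spots each, which shows how precisely a single array was read. The Myd88 spots kept on array 1 lay between 0.52 and 0.61, those on array 2 between 0.34 and 0.38, on array 3 between 0.19 and 0.3 and on array 4 between 0.04 and 0.17. The spots kept on the 4 arrays did not overlap, between 8 and 10 of them per array. The SD over Myd88 spots was 0.0316, 0.0147, 0.0273 and 0.0414 on arrays 1 to 4, against an SD of 0.2 between arrays.

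For Tlr2 the spots ranged from 0.11 to 0.19 on array 1, from -0.11 to -0.02 on array 2, from 0.11 to 0.33 on array 3 and from 0.32 to 0.45 on array 4. Every Tlr2 spot kept on array 2 lay below 0 and every one kept on the other arrays above it. The spot SDs of Tlr2 were 0.0241, 0.0277, 0.0792 and 0.0459, against 0.18 between arrays. Both genes behaved as most probes of this kind, since 276 of 290 probes with 10 spots (95.2%) varied more between arrays than between spots.

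**Figure D3:**
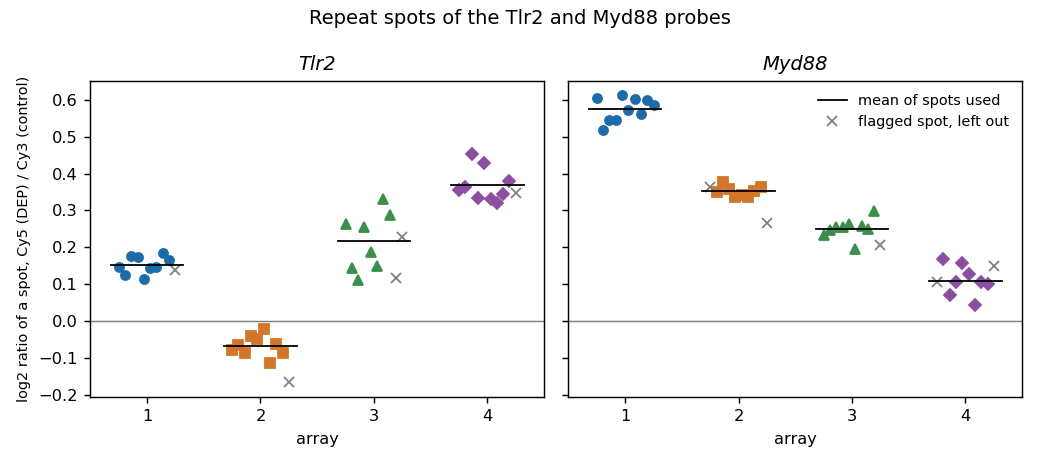
Log2 ratio of every spot of the Tlr2 and Myd88 probes on each array, with a line at the mean of the spots used and crosses for flagged spots that were left out. Kept Myd88 spots form a separate band on each array, with means of 0.58, 0.35, 0.25 and 0.11, and Tlr2 spots lie below 0 on array 2.

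The background correction and scaling of the arrays changed the order of the members. Over all genes the median ratio was 0.037 with the deposited ratios, 0.004 after normexp background correction and loess, and 0.188 after normexp and centring of each array on its median. Relative to these medians Myd88 lay at 0.28, 0.22 and 0.33, Tlr4 at 0.28, 0.18 and 0.2, Tlr9 at 0.1, 0.1 and 0.26, and Tlr2 at 0.13, 0.07 and 0.12. These 4 genes kept their sign in the 3 scalings, and Tlr1 (-0.03, -0.09 and -0.16) and Tlr6 (-0.04, -0.09 and -0.18) lay under the median in each. Tlr3 lay at 0.55, 0.16 and -0.16 and Tlr5 at 0.5, 0.11 and -0.22, values that rest on a Cy3 signal not well above background on 2 and 3 of 4 arrays, and Tlr8 is not placed, since neither of its channels was well above background. The brighter Tlr7 probe moved from 0.08 to 0.01 and -0.02. Of the 10 genes, 8, 8 and 4 lay above the median of all genes, while higher probes made up 51.7%, 42.9% and 73.3% of all probes with an unadjusted p under 0.05. With median centring Myd88 passed adjustment at a mean of 0.52 (limma adjusted p 0.0391), as did 9.9% of all probes in that direction.

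The other genes of the pathway were described by 10 lists with 83 genes in all, of which 78 were tested. None passed adjustment in limma. At an unadjusted p under 0.05, 17 (21.8%) were higher and 4 (5.13%) lower in the channel labelled DEP, against 9.19% and 7.5% of all genes, and 55 (70.5%) had a mean above 0. When full measurement and 1 sign on the 4 arrays were required as well, 13 genes (16.7%) were higher and 3 (3.85%) lower, against 5.09% and 3.89% of all genes. The count of higher genes at the unadjusted level fell to 9 without array 2, to 8 without array 3 and to 11 of 76 with arrays 3 and 4 alone, where the share of all genes called higher was 4.6%, 5.07% and 8.39%. With median centring 37 were higher and 2 lower, where 32.1% of all genes were called higher and 6.85% lower. Of the genes named below, Tlr13 (0.62), Cd36 (0.78) and Slc15a4 (0.84) had means over 1.5 times larger there. With arrays 3 and 4 alone Cd36 had a mean of 0.19, Socs1 of 0.18 and Traf6 of 0.3, each smaller than with all arrays.

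Among the other mouse Toll-like receptors, Tlr13, a receptor of bacterial ribosomal RNA, was the 1 of 3 genes higher at the unadjusted level (9.19% of all genes). The ratios of Tlr13 were 0.13, 0.36, 0.57 and 0.34, with a mean of 0.35 ± 0.18 (SD, n = 4) and a limma adjusted p of 0.24. Tlr12 had a mean of 0.11, and Tlr11 was above background in neither channel on any array.

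Of the 6 co-receptors and ligand transfer proteins, 2 were higher at the unadjusted level (9.19% of all genes). Ly96, which binds lipopolysaccharide for Tlr4, had ratios of 0.29, 0.29, 0.21 and 0.57 and a mean of 0.34 ± 0.16 (SD, n = 4; limma adjusted p 0.236). Cd36, a scavenger receptor that assists Tlr2 and Tlr6, had ratios of 0.68, 0.7, 0.29 and 0.09 and a mean of 0.44 ± 0.3 (SD, n = 4; limma adjusted p 0.242). Cd14, which passes lipopolysaccharide to Ly96 and Tlr4, had ratios of -0.06, -0.67, -0.77 and 0.04 and an adjusted p of 0.357, so that Ly96 lay above 0 on every array and Cd14 on 1 of 4.

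The 5 chaperones and trafficking genes were split. Slc15a4, a lysosomal transporter needed for endosomal receptor signalling, had ratios of 0.24, 0.6, 0.54 and 0.5 with a mean of 0.47 ± 0.16 (SD, n = 4; limma adjusted p 0.167). Hsp90b1, the endoplasmic reticulum chaperone that folds most Toll-like receptors, had ratios of -0.48, -0.01, -0.48 and -0.53 and a mean of -0.37 ± 0.24 (SD, n = 4; limma adjusted p 0.252), which turned to 0.22 after normexp and median centring. Unc93b1, which carries the nucleic acid receptors to endosomes, had a mean of -0.04 ± 0.21 (SD, n = 4; limma adjusted p 0.872).

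Among the kinases and ubiquitin ligases of the Myd88 and Ticam1 branches, 5 of the 18 genes were higher at the unadjusted level and 1 was lower. The shares of all genes were 9.19% and 7.5%. Ripk1, a kinase on the Ticam1 and tumour necrosis factor branches, had ratios of 0.71, 0.81, 0.88 and 0.54 and a mean of 0.74 ± 0.15 (SD, n = 4; limma adjusted p 0.108). Map3k8, the kinase that leads from NF-kB1 to ERK, had a mean of 0.58 ± 0.37 over ratios of 1.1, 0.35, 0.61 and 0.27 (limma adjusted p 0.205), which was 0.22 after normexp and loess. Traf6, the ubiquitin ligase next after Myd88 and the Irak kinases, had ratios of 0.67, 0.56, 0.2 and 0.41 and a mean of 0.46 ± 0.2 (SD, n = 4; limma adjusted p 0.187), or 0.28 after normexp and loess. Tab1, a partner of the kinase Map3k7, was lower on every array at -0.31, -0.41, -0.33 and -0.34, with a mean of -0.35 ± 0.04 (SD, n = 4; limma adjusted p 0.196), but turned to 0.03 after normexp and median centring.

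The Irak kinases, which bind Myd88 directly, were not past the unadjusted level. Irak4 had 0.12 ± 0.11 (SD, n = 4; limma adjusted p 0.557), Irak1 had -0.05 ± 0.09 (limma adjusted p 0.797) and Irak2 had -0.16 ± 0.29 (limma adjusted p 0.584). Irak3, which restrains the pathway, had ratios of 0.42, 0.25, 0.31 and 0.05 and a mean of 0.26 ± 0.15 (SD, n = 4; limma adjusted p 0.307). The other 2 probes of Irak1 had means of -0.27 and 0.11. Of the 4 tested TIR adaptors beside Myd88, 1 was higher and 1 lower at the unadjusted level (9.19% and 7.5% of all genes), both not fully measured. Pik3ap1 was above background on 2 arrays in Cy5 and 1 in Cy3, with ratios of 0.17, 0.59, 0.55 and 0.56. Sarm1 was lower on every array, with a mean past 2-fold, but was above background in neither channel on any array. That mean compares background signals, so no fold is given. Tirap, which bridges Tlr2 and Tlr4 to Myd88, had a mean of 0.2 ± 0.18 and Ticam1 of 0.16 ± 0.43, neither past that level.

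The receptors outside the family that also signal through Myd88 had the highest median of the 10 lists, 0.55, against 0.04 for all genes. Of the 5 tested, 3 were higher at the unadjusted level (9.19% of all genes). Il18r1, a subunit of the interleukin-18 receptor, had ratios of 0.39, 0.92, 0.99 and 0.71 and a mean of 0.75 ± 0.27 (SD, n = 4; limma adjusted p 0.13), or 0.44 after normexp and loess. Il1r1, the signalling receptor of interleukin-1, had 0.79, 0.67, 0.35 and 0.72 with a mean of 0.63 ± 0.19 (SD, n = 4; limma adjusted p 0.135). Il1rl1, the interleukin-33 receptor, had 0.2, 1.01, 0.38 and 0.59 with a mean of 0.55 ± 0.35 (SD, n = 4; limma adjusted p 0.211). Each of the 3 genes lay above 0 on every array of these probes, and their other probes, which were not fully measured, had means of 0.19 for Il18r1 and of 1.83 and 0.02 for Il1rl1.

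Among the outputs of the pathway, of the 14 target genes tested, 2 were higher at the unadjusted level (9.19% of all genes) and 12 had a mean above 0 (55.3% of all genes), with a median of 0.2. The 2 were Tnf, with ratios of 0.88, 0.28, 1.22 and 0.56, and Il12a, with 0.28, 0.38, 1.58 and 1.44, both cytokine genes above 0 on every array and neither fully measured, with Cy3 above background on 2 arrays for Tnf and on 0 for Il12a. Il1b had ratios of 0.56, -0.14, -0.23 and 0.65, Cxcl1, a neutrophil chemokine, 2.36, -0.01, -0.02 and -0.29, and Ccl2, a monocyte chemokine, 1.15, -1.06, -0.61 and 0.9, so that array 1 differed from arrays 2 and 3 in each. Of the 7 negative regulators 1 was higher, Socs1, which limits cytokine and Toll-like receptor signalling. The ratios of Socs1 were 0.57, 0.57, 0.25 and 0.11, with a mean of 0.38 ± 0.23 (SD, n = 4; limma adjusted p 0.244). Of the 9 transcription factors 1 was higher at the unadjusted level, and the median was 0.12. It was Rel, which had ratios on 3 arrays and was above background on 1 array in each channel. Nfkb1 had a mean of -0.001 on the brighter probe, which was counted. Its other probe, also fully measured, had a mean of 0.53 (limma unadjusted p 0.00709).

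Of the 7 genes for endogenous ligands, 1 was lower at the unadjusted level (7.5% of all genes). Hmgb1, a nuclear protein that dying cells release, had ratios of -0.71, -0.15, -0.31 and -0.31 on the brightest of its 7 probes, with a mean of -0.37 ± 0.24 (SD, n = 4; limma adjusted p 0.256), which turned to 0.16 after normexp and median centring. The other Hmgb1 probes had means between -0.19 and 0.08. S100a8 had ratios of -1.38, 0.01, 1.63 and 0.84, lower in the channel labelled DEP on array 1 and higher on arrays 3 and 4.

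**Figure D4:**
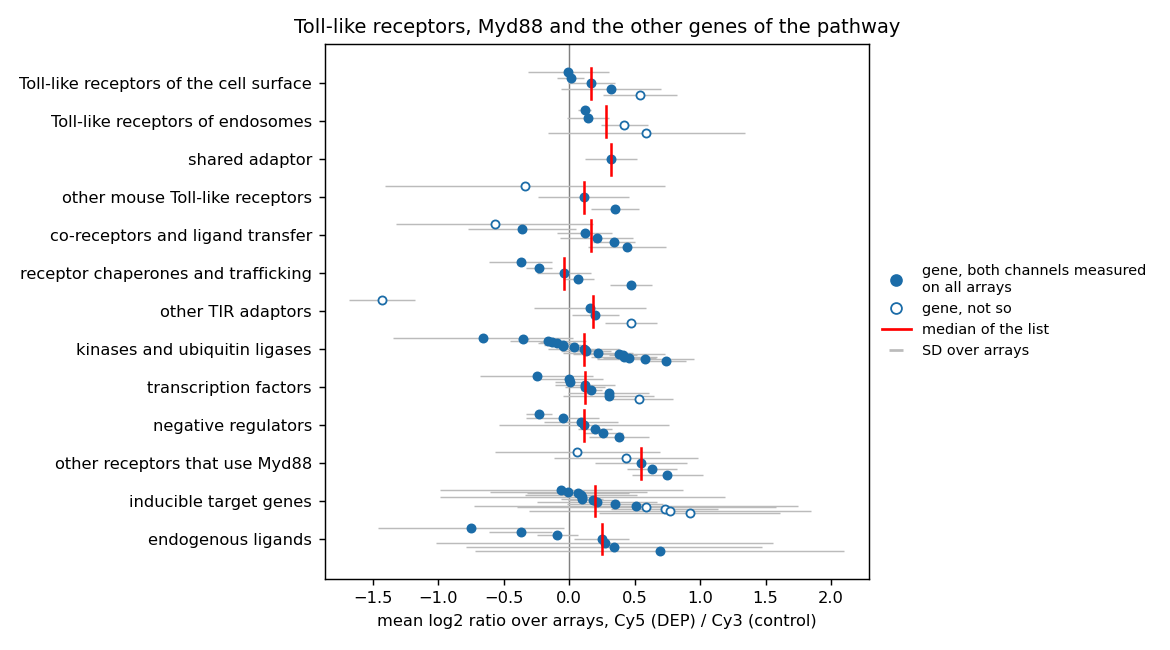
Mean log2 ratio over arrays of each tested gene by its role in the pathway, with the SD over arrays as a grey line, the median of each list as a red mark, and open symbols for genes not fully measured. The list of other receptors that use Myd88 has the median farthest from 0, at 0.55, and the chaperones have a median of -0.04.

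In a bulk extract, fewer cells of a type and less RNA per cell cannot be told apart, so marker lists of cell types were set beside the members. The 7 fully measured members had medians of 0.03, 0.1, 0.12 and 0.28 on arrays 1 to 4. The 10 tested macrophage and monocyte markers had medians of -0.24, 0.07, 0.16 and 0.5, in the same order of arrays, with 6 of 10 means above 0 (55.3% of all genes), 9 of 10 fully measured and summed signals of 40843 to 65120 in Cy5 and 50307 to 77622 in Cy3. Their part in the ratios of the members was not tested. Within that list 2 of 10 genes were higher and 1 lower at an unadjusted p under 0.05, against 9.19% and 7.5% of all genes. Adgre1, the F4/80 antigen, had a mean of 0.53 ± 0.32, Marco, a scavenger receptor above background on 1 array in Cy3, of 0.75 ± 0.2, and Lyz2, lysozyme, of -0.66 ± 0.48.

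The same order of arrays was seen in the T and NK cell list, with medians of -0.06, 0.01, 0.16 and 0.38, and in the astrocyte list, with -2.36, -0.66, -0.05 and 0.13. Of the 8 T and NK cell markers 4 were fully measured, and 2 were above background in neither channel on any array. The neutrophil list had medians of -1.13, 0.01, 0.59 and 0.15 with 9 of 9 markers fully measured, and summed signals of 315531 to 480653 in Cy5 and 260240 to 727402 in Cy3. The B cell list had medians of -0.51, -0.01, 0.36 and 0.24 and the dendritic cell list -0.12, 0.27, 0.06 and 0.03. On array 1 the medians of all 15 cell type lists lay below 0, those of muscle (-0.82), bone and cartilage (-0.38) and endothelium (-0.16) included, and the median of all genes was -0.03. Tlr1, Tlr4, Tlr6 and the dimmer Tlr7 probe lay below 0 there as well, and Myd88 had its highest ratio, 0.58.

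In the epithelial list 9 of 9 markers were fully measured (79.5% of all genes), with medians of -0.22, 0.27, -0.36 and -0.5. No list particular to the ear was used, so the ear label was not checked. Markers of nervous tissue differed most between the channels. The cerebellum list had medians of -3.07, -3.55, -0.24 and 0.23 and the neuron list, in the members' order of arrays, -2.47, -1.83, -0.49 and 0.37, with summed cerebellum signals of 4760 to 12961 in Cy5 and 4300 to 98030 in Cy3. The control channel of arrays 1 and 2 thus held more of these transcripts. Microglia, which also use Toll-like receptors, had list medians of -0.72, 0.06, -0.06 and 0.44. With arrays 3 and 4 alone the mean of Myd88 was 0.18, that of Tlr4 0.54, that of Tlr2 0.29 and that of Tlr9 0.21, and none passed adjustment in limma.

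**Figure D5:**
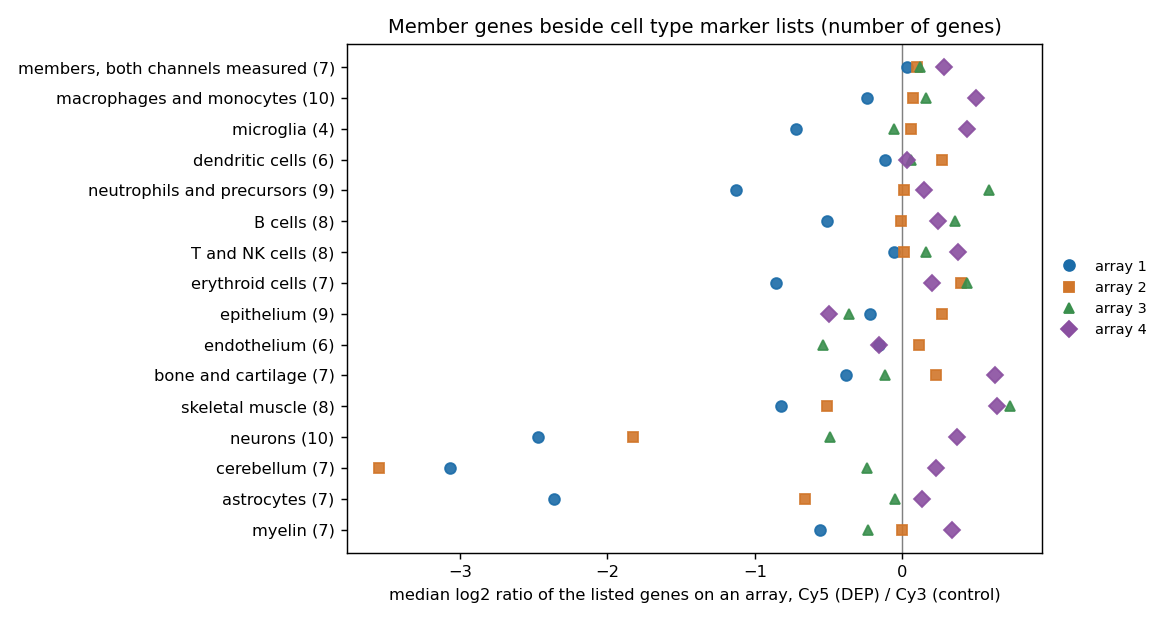
Median log2 ratio on each array of the 7 fully measured members and of 15 cell type marker lists, with the number of genes in brackets. The members' medians, 0.03 to 0.28, span less than those of any other list shown, and the cerebellum and neuron lists lie farthest below 0 on arrays 1 and 2.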

How the data were processed

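The authors hybridized 1 DEP and 1 control extract per array, quantified spots with Agilent Feature Extraction 10.10.1.1 per the labels, and deposited 1 scanner file per array. The deposited processed intensity is background-subtracted and dye-normalized, and its Cy5 to Cy3 quotient was deposited as a log10 ratio. A second deposited file lists these values rounded. Ratios were converted to log2. Spots flagged as non-uniform or as population outliers (164 to 274 per array) and spots without a ratio (6179 to 8558 of 43020) were left out, spots of a probe were averaged, and probes with ratios on at least 3 arrays were tested.

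An intercept was fitted with lmFit and eBayes (limma 3.58.1, R 4.3.3), two-sided, with Benjamini-Hochberg adjustment over 31577 probes, and the fit was tested on simulated data. The 4 arrays were 1 group of replicates, and their number limits the precision. Genes were represented by their brightest probe. Probes were named through RefSeq (GRCm38.p6, names only), which matched 27655 of 39429. The array design names another build, so no coordinates of the probes were used. From each pathway list at most 3 genes in each direction are named by rule, those with the largest mean among genes above background in both dyes and of 1 sign on all 4 arrays with an unadjusted p under 0.05. Irak1, Irak2, Irak3, Irak4, Tirap, Ticam1, Pik3ap1, Sarm1, Unc93b1, Cd14, Tlr11, Tlr12, Rel, Nfkb1, Tnf, Il12a, Il1b, Cxcl1, Ccl2, S100a8, Adgre1, Marco and Lyz2 were named after their values were seen. Members and lists were chosen with earlier results of these data known. The alternatives were normexp (offset 50) with loess or median centring, the deposited table, filters on dim probes, flagged spots kept, an intensity trend, ordinary least squares, the mean of a gene's probes, each array left out, and arrays 3 and 4 alone, the last chosen after seeing the data. The table of the authors' values served as an alternative only, and no probe sequences or proteins were used here. Figures were drawn with matplotlib 3.10.9 under Python 3.11.15.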

Additional observations from a re-analysis of the deposited data

Results flagged for a closer look

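Of 24 values tested for an array far from the other 3, 1 passed Dixon's limit for 4 samples. Hsp90b1 (A_52_P624149), the chaperone of Toll-like receptors, had a ratio of -0.01 on array 2 against -0.48, -0.48 and -0.53 on the others, a gap of 0.909 of the range. Without array 2 its mean was -0.49. Chance passes this limit in about 1 of 20 groups.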

How the results depend on the processing

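No paired analysis was possible because the samples share no pairing other than that of the DEP and control extracts on an array, which the fit to their ratio already uses. Of 136 member probe values under alternatives, 124 kept their direction and their side of the threshold. The filters on dim probes, the intensity trend and ordinary least squares cannot move a mean, and the deposited table holds the same ratios rounded. No probe passed adjustment in any setting but median centring, so this count was largely set in advance and does not measure robustness. After normexp and median centring, 3420 probes passed adjustment, 11350 had an unadjusted p under 0.05, Myd88 stood at 0.52 and passed, and 19 pathway genes passed, with 37 higher and 2 lower at the unadjusted level. Values that turned there were Tlr5 (-0.04), Tlr6 (0.0099), Tlr8 (-0.15), the Tlr7 probe A_55_P2129047 (-0.03), Hsp90b1 (0.22), Tab1 (0.03) and Hmgb1 (0.16). After normexp and loess Tlr1 turned to -0.09 and A_55_P2129047 to -0.0072, and 8 pathway genes were lower. The cause was not tested. The median over members, 0.24, was 0.09 with loess, 0.1 with median centring and 0.14 with either filter on dim probes, which removed Tlr3, Tlr5 and Tlr8. With both channels required, 3466 probes had an unadjusted p under 0.05. An intensity trend gave 7 lower pathway genes. With arrays 3 and 4 alone Tlr6 was 0.18 and 11 pathway genes were higher, and Tlr8 had no value.

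With 1 array left out, no probe passed adjustment, and 3501 (without array 2) to 5924 (without array 4) had an unadjusted p under 0.05. Ranges were -0.01 to 0.06 for Tlr1 (-0.01 without array 2, -0.0033 without array 4), -0.1 to 0.14 for Tlr6 (0.14 without array 1), -0.2 to 0.25 for A_55_P2129047 (-0.2 without array 3) and 0.24 to 0.39 for Myd88. The median over members was 0.13 to 0.28, lowest without array 4, and 8 to 10 genes lay above 0. Pathway genes at the unadjusted level were 8 to 16 higher and 1 to 3 lower. Of 182 values of the named pathway genes, 170 kept their direction and side, and every departure came with normexp and median centring. There Hsp90b1, Tab1 and Hmgb1 turned, and the other named genes except Ly96 and Map3k8 passed adjustment. As for the members, several of the alternatives could not move a mean. Signal over background limits Tlr3, Tlr5 and Tlr8, for which the deposited ratios rest on a channel near background on most arrays.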
